A study of Mus musculus with 6 samples.

Results

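The 7 genes described here encode sensors of foreign or misplaced nucleic acid in the cytosol and their nearest partners: the RIG-I-like receptors Ddx58, Ifih1 and Dhx58, their adaptor Mavs, the ubiquitin ligase Trim25, and the nucleic acid binding proteins Zbp1 and Eif2ak2. They were chosen by symbol, with the difference between the groups already known, and each symbol matched 1 of the 27761 rows of the deposited table. The series measured messenger RNA of mouse bone marrow B220+ cells in 6 libraries, 3 from WT mice and 3 with the genotype PELI2 knockout (titled CKO). B220 is a form of CD45 carried by B-lineage cells and by plasmacytoid dendritic cells, and Peli2 encodes a Pellino ubiquitin ligase of Toll-like receptor signalling. No treatment is named for either group. The Cre driver, strain, age and sex, and whether replicates are separate animals, are not given in the sources used here, so each p-value reflects no more than the variation among these libraries.

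RIG-I-like receptors are helicases that bind viral RNA in the cytosol and pass the signal through MAVS on the outer mitochondrial membrane to the kinases TBK1 and IKKε and the factors IRF3 and IRF7, which switch on type I interferon genes. Interferon in turn raises the transcription of the sensors themselves through factors, IRF9 among them, that bind interferon-stimulated response elements (ISREs). B cells and plasmacytoid dendritic cells carry these sensors beside the Toll-like receptors of their endosomes.

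All 7 rows had the same GRCm38 coordinates as GENCODE M21. Ddx58 (ENSMUSG00000040296) lies on chromosome 4 from 40203773 to 40239828, Eif2ak2 (ENSMUSG00000024079) on chromosome 17 from 78852564 to 78882573, and Trim25 (ENSMUSG00000000275) and Dhx58 (ENSMUSG00000017830) on chromosome 11 from 88999376 to 89020293 and from 100694884 to 100704271. Ifih1 (ENSMUSG00000026896), Mavs (ENSMUSG00000037523) and Zbp1 (ENSMUSG00000027514) all lie on chromosome 2, from 62595798 to 62646255, 131234063 to 131248025 and 173206612 to 173218923. RefSeq promoters (GRCm38.p6, 250 bases before to 50 after the start of the gene) were on hand for 5 of them: Ddx58, Ifih1, Mavs, Trim25 and Eif2ak2. The core of the ISRE, searched on both strands as GAAA repeated after a spacer of 2 bases, was in the promoters of Ddx58, Ifih1 and Eif2ak2, and in 3.44% of 32851 mouse promoters of the same length. The same repeat with a spacer of 1 base, in 3.17% of promoters, was found in that of Ddx58. Also searched was the GAS motif, TTCNNNGAA with N any base, in 8.3% of promoters and, among these genes, in that of Eif2ak2. These letters were not in the Mavs or Trim25 windows. The motifs were chosen after the promoters had been read, and a match describes letters, not a bound site. The windows of 30 bases below show where the ISRE-type repeats lie in these genes, 5′ to 3′ on the strand of the gene, with the match in capitals.
Ifih1, chr2:62646206-62646235, minus strand, match from base 33 to 42 after the start: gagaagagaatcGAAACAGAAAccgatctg
Ddx58, chr4:40239804-40239833, minus strand, match on the opposite strand from base 3 to 12: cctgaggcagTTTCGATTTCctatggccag
Ddx58, chr4:40239866-40239895, minus strand, spacer of 1, from base -60 to -52: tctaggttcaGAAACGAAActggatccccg
Eif2ak2, chr17:78882535-78882564, minus strand, match from base 19 to 28: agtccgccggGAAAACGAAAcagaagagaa

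Values are FPKM, read counts scaled for transcript length and library size, so levels can be compared between genes. Their sum per library was 309301 to 323155 in WT and 331189 to 338098 in the knockout-labelled libraries, so the libraries do not share a common total. Depth read from the steps of the low values was 16600000 to 18100000 reads per library. Peli2, the targeted gene, averaged 2.19 ± 0.31 FPKM over WT libraries and 2.74 ± 0.30 FPKM over knockout-labelled libraries (SD, n = 3; exact permutation test, two-sided, p = 0.2, where 0.1 is the smallest possible). A value for the whole gene does not show the loss of an exon, and directions below are those of the label. Of 12953 genes tested with limma on log2(FPKM + 1), 3 passed an adjusted p of 0.05, or 0.0232%. At an unadjusted p under 0.05, 18.1% differed, 8.88% lower and 9.2% higher. The neutrophil markers had a higher mean in the knockout-labelled libraries for 10 of 10 genes, with a summed level of 7135 to 9933 FPKM in WT and 11406 to 13353 FPKM there, and the B-lineage markers a lower mean for 9 of 9, at 1799 to 2137 and 1455 to 1552 FPKM.

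Most of the sensors and partners had a lower mean in the knockout-labelled libraries. Ddx58 stood lowest against WT, at 0.765 times the WT mean, and Zbp1, Dhx58 and Eif2ak2 stood at 0.814, 0.821 and 0.834 times it. Trim25 and Mavs differed less, at 0.925 and 0.932 times. Ifih1 stood at 1.04 times the WT mean, with overlapping groups. A lower mean log2 level was found for 6 of the 7, where 53.6% of all tested genes had one, and the groups did not overlap, with the knockout-labelled libraries below WT, for 4 of the 7, where 14.3% of tested genes did so and 25.8% were apart in either direction. None of the 7 passed the adjusted threshold (limma), 4 were lower at an unadjusted p under 0.05, where 8.88% of tested genes were (18.1% in either direction), and none was higher. The genes were picked with this contrast in view, so these counts and the differences below are a description.

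**Figure D1:**
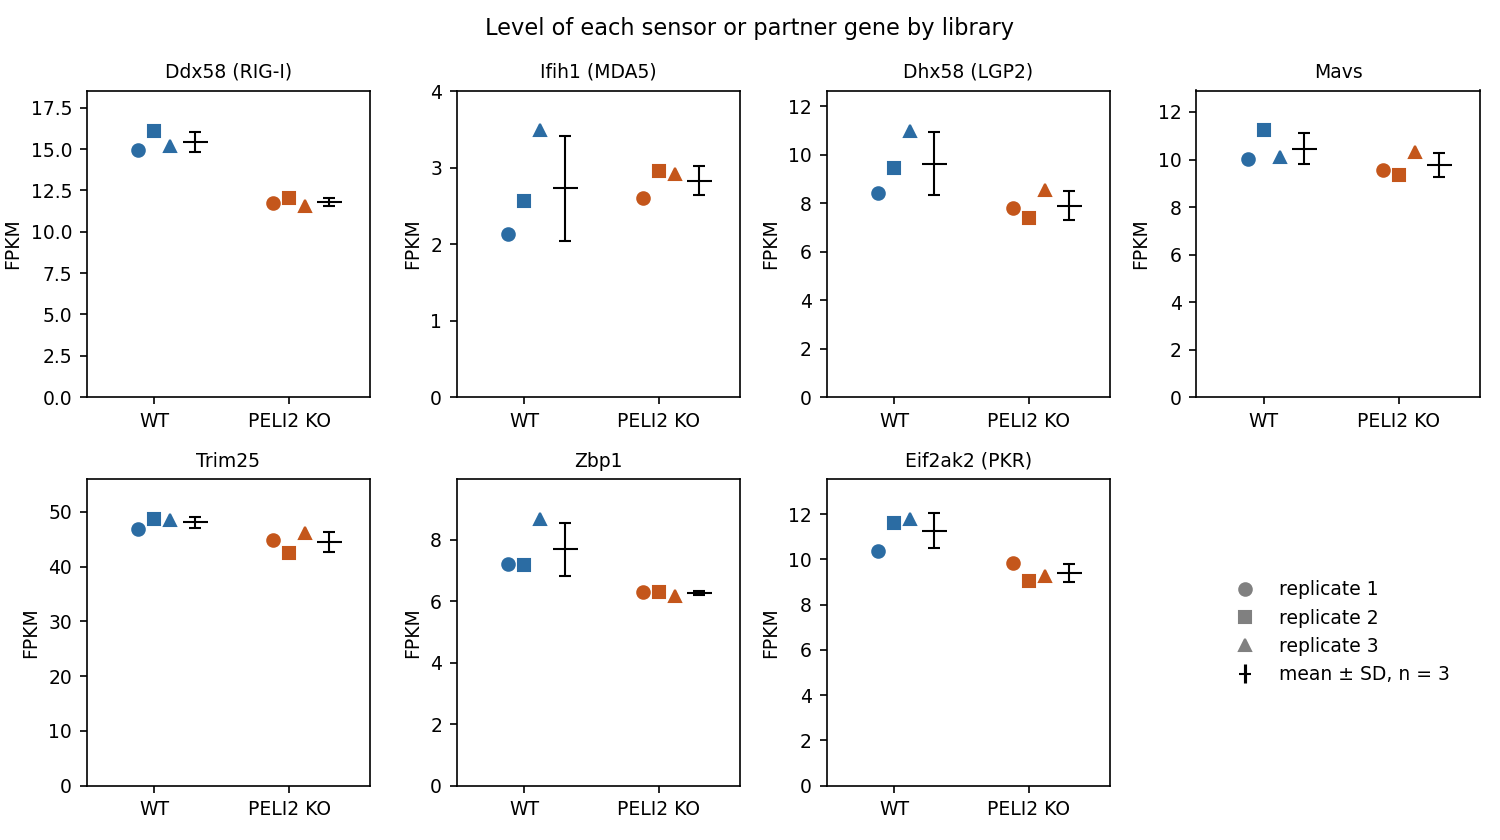
FPKM of the 7 genes in each library (vertical axes from 0, one panel per gene); blue points are WT, orange points the libraries labelled PELI2 knockout, marker shapes give the replicate, and black bars the mean ± SD of 3 libraries. Ddx58, Trim25, Zbp1 and Eif2ak2 show groups that do not overlap, while Ifih1 is spread from 2.14 to 3.49 FPKM within WT.

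Ddx58 encodes RIG-I, which recognises short RNA with a triphosphate at its 5′ end. It stood at 14.9, 16.1 and 15.2 FPKM in WT replicates 1 to 3 and at 11.8, 12.1 and 11.6 FPKM in the knockout-labelled replicates 1 to 3. Every knockout-labelled library lay below every WT library, and the spread within each group was small, with a coefficient of variation of 4.04% and 2.1%. The means were 15.4 ± 0.62 and 11.8 ± 0.25 FPKM, a log2 difference of -0.36 with a standard error of 0.049. Of all tested genes 2.74% had a lower log2 difference. If every read came from its longest annotated transcript, the gene had 795 to 1037 reads per library.

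Ifih1 encodes MDA5, the sensor of long base-paired RNA. It had the lowest level of the 7 genes, at 2.14, 2.57 and 3.49 FPKM in WT and 2.61, 2.95 and 2.92 FPKM in the knockout-labelled libraries. The latter all lay inside the range of WT, and the coefficient of variation was 25.2% in WT and 6.71% in the other group. The log2 difference of 0.05 had a standard error of 0.136, and its direction rested on WT replicate 1: without it the difference was -0.066, and without WT replicate 3 it was 0.19. If every read came from its longest annotated transcript, Ifih1 had 208 reads in WT replicate 1, its lowest count, where counting alone gives an SD of about 0.1 on the log2 scale. The spread among WT libraries was wider than that, and the smallest difference that could be detected was not worked out.

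Dhx58 encodes LGP2, a relative that lacks the signalling domains of RIG-I and MDA5 and tunes their response. It stood at 8.43, 9.47 and 11.004 FPKM in WT and at 7.79, 7.38 and 8.54 FPKM in the knockout-labelled libraries. Knockout-labelled replicate 3 lay above WT replicate 1, so the groups overlapped. The means were 9.64 ± 1.29 and 7.91 ± 0.59 FPKM, a log2 difference of -0.25 (SE 0.099). Without WT replicate 3 it was -0.16. The antisense transcript Dhx58os overlaps the gene on the other strand and strand use is not stated, and its own row stood at 0.11 to 0.389 FPKM over the 6 libraries.

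Mavs, the adaptor that joins RIG-I and MDA5 to the downstream kinases, stood at 10.04, 11.2 and 10.1 FPKM in WT and 9.57, 9.36 and 10.3 FPKM in the knockout-labelled libraries. The groups overlapped, and the log2 difference was -0.09 (SE 0.063), or -0.044 without WT replicate 2. Trim25, the ligase known for attaching ubiquitin chains to RIG-I, had the highest level of the 7. It stood at 46.9, 48.7 and 48.6 FPKM in WT and 44.9, 42.4 and 46.1 FPKM in the knockout-labelled libraries. Its groups did not overlap, but the gap was narrow, with 46.1 against 46.9 FPKM at the nearest libraries. The log2 difference of Trim25 was -0.11 (SE 0.049), and 22.8% of tested genes had a lower one.

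Zbp1, a sensor of Z-form nucleic acid that can start necroptosis, stood at 7.20, 7.19 and 8.67 FPKM in WT and 6.29, 6.31 and 6.18 FPKM in the knockout-labelled libraries. The latter agreed within a coefficient of variation of 1.13%, while WT replicate 3 stood above the other two WT libraries. The log2 difference was -0.25 (SE 0.077), or -0.17 without WT replicate 3. Eif2ak2 encodes PKR, the kinase that binds base-paired RNA and blocks translation by phosphorylating eIF2α. It stood at 10.4, 11.6 and 11.8 FPKM in WT and 9.83, 9.06 and 9.28 FPKM in the knockout-labelled libraries. The groups did not overlap, and the log2 difference was -0.24 (SE 0.064). The gene Gm26637 overlaps it on the other strand, with 0.58 to 1.21 FPKM over the 6 libraries.

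**Figure D2:**
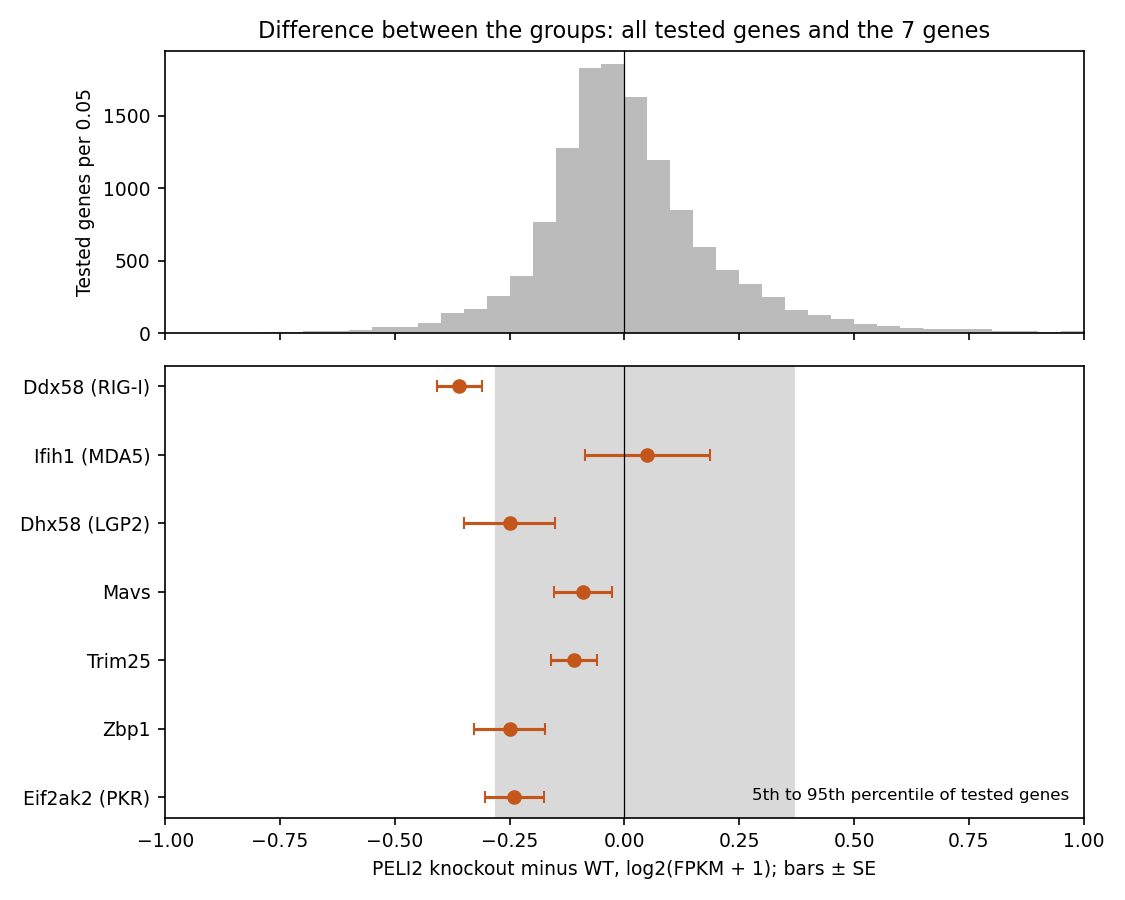
Upper panel: number of tested genes per bin of 0.05 of the log2(FPKM + 1) difference, PELI2 knockout minus WT (horizontal axis, shown from -1 to 1; a few genes lie beyond it). Lower panel: the same difference for each of the 7 genes with its standard error, over a grey band from the 5th to the 95th percentile of all tested genes (-0.28 to 0.37). Ddx58 at -0.36 lies to the left of the band, Dhx58, Zbp1 and Eif2ak2 near its edge, and Ifih1 at 0.05 on the other side of 0.

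The order of levels was similar in both groups. In WT it ran from Trim25 at 48.1 FPKM through Ddx58 at 15.4, Eif2ak2 at 11.3, Mavs at 10.5, Dhx58 at 9.64 and Zbp1 at 7.69 to Ifih1 at 2.73 FPKM. Eif2ak2 and Mavs, Mavs and Dhx58, and Dhx58 and Zbp1 overlapped over their WT libraries. In the knockout-labelled libraries Mavs, at 9.75 FPKM, came before Eif2ak2, at 9.39 FPKM, and these were the only neighbours that overlapped. Trim25 had a higher level than 91.7% of tested genes in WT, and Ifih1 than 22.9%.

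Libraries within a group were not alike for these genes. WT replicate 1 had the lowest WT value for 6 of the 7 genes, all but Zbp1, and WT replicate 3 the highest for Ifih1, Dhx58, Zbp1 and Eif2ak2. WT replicate 1 also had the lowest neutrophil marker sum of WT (7135 FPKM, against 9933 and 9403) and the highest B-lineage sum (2137 FPKM, against 1799 and 1860). In the knockout-labelled group no library was highest for more than 3 of the genes, and replicate 2 was lowest for 4, Dhx58, Mavs, Trim25 and Eif2ak2. The median coefficient of variation over the 7 genes was 6.84% in WT and 4.3% in the other group.

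Profiles over the 6 libraries were compared by the mean absolute difference of log2 levels, centred on each gene's own mean. The 7458 genes compared had a mean of at least 5 FPKM. Predicted genes (Gm or Rik names), unnamed rows and antigen receptor segments were left out. The genes nearest to Ddx58 were Parp14 (0.0364), Rasgrp1 (0.0448) and Slfn8 (0.0456). Parp14, an ADP-ribosyltransferase, averaged 18.9 ± 0.49 FPKM over WT and 14.5 ± 0.23 FPKM in the knockout-labelled libraries. Nearest to Dhx58 were Rnf213 (0.0271), Gpr180 (0.0475) and Helz2 (0.0516), and Rnf213, a large ubiquitin ligase, stood at 25.9 ± 2.65 and 21.6 ± 0.98 FPKM. Nearest to Ifih1 were Abracl (0.0428), Spp1 (0.0479) and Slfn1 (0.0489). Slfn1, a Schlafen family member, shared the wide spread of Ifih1 in WT, at 10.1, 12.3 and 16.5 FPKM. Among the 7 genes themselves the nearest pair was Mavs and Trim25 (0.0412), followed by Zbp1 and Eif2ak2 (0.0631). Ifih1 and Ddx58 were the farthest apart (0.237). These likenesses describe 6 libraries that share the group difference, and carry no test.

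**Figure D3:**
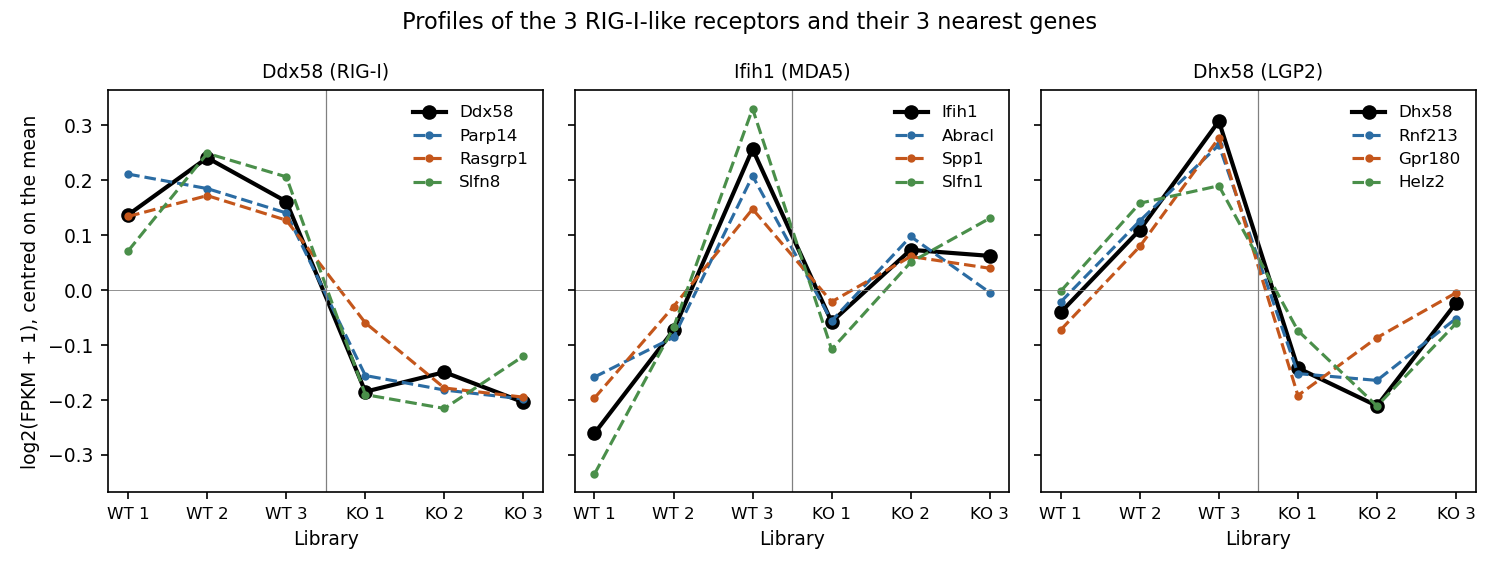
Level of Ddx58, Ifih1 and Dhx58 (black) and of the 3 nearest genes by profile (coloured, dashed) in each library, as log2(FPKM + 1) minus the gene's mean over the 6 libraries; lines join libraries only to make a profile easy to follow. Ddx58 is lower in every knockout-labelled library than in any WT library, Ifih1 varies within WT, and Dhx58 peaks in WT replicate 3.

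The other genes of these pathways were read from 6 lists. Of 90 tested genes, each counted once, none passed over all genes (limma, smallest adjusted p = 0.14), where 0.0232% of tested genes did. At an unadjusted p under 0.05, 11 were lower and 10 higher, beside the 8.88% and 9.2% of all tested genes, and the median log2 difference was 0, against -0.01 over all tested genes. The median over the 7 sensor and partner genes was -0.24. The list medians given below are small, and the direction of 5 of the 6 turned under at least 1 alternative, the exception being the co-factors and regulators.

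Of the 22 genes that act downstream of Mavs, 1 was lower and 3 were higher at an unadjusted p under 0.05, with a median of -0.04. Ikbke, the kinase IKKε that phosphorylates IRF3, stood at 2.17, 2.66 and 2.73 FPKM in WT and 3.88, 3.74 and 3.35 FPKM in the knockout-labelled libraries, with groups apart (limma adjusted p = 0.147). Tbkbp1, an adaptor of TBK1, stood at 3.48 ± 0.33 and 4.52 ± 0.26 FPKM, and Ripk1, a kinase of cell death and NF-kB signalling, at 5.52 ± 0.55 and 6.68 ± 0.14 FPKM. Tomm70a, the mitochondrial import receptor that binds MAVS, stood at 27.0 ± 0.22 and 24.8 ± 0.37 FPKM.

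Among 27 co-factors and regulators 3 were lower and 1 was higher at that threshold, with a median of -0.07. Nlrx1, a mitochondrial NLR protein described as a brake on MAVS, stood at 1.79, 1.90 and 2.23 FPKM in WT and 2.84, 2.98 and 2.98 FPKM in the knockout-labelled libraries (limma adjusted p = 0.142). Mex3c, a ubiquitin ligase reported to act on RIG-I, stood at 18.5 ± 0.80 and 16.3 ± 0.33 FPKM. The RNA helicase Dhx9 stood at 46.9 ± 1.47 and 43.2 ± 0.18 FPKM. Nlrc5, a regulator of MHC class I genes, stood at 21.4 ± 1.27 and 19.0 ± 1.23 FPKM, with overlapping groups.

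Of 12 tested genes of cytosolic DNA sensing 1 was lower and 2 were higher, with a median of 0.03. Mb21d1 encodes cGAS, the DNA sensor that makes the messenger for STING, and stood at 1.76, 2.09 and 2.39 FPKM in WT and 3.13, 3.25 and 2.90 FPKM in the knockout-labelled libraries (limma adjusted p = 0.151). Its groups were apart in the direction opposite to that of Ddx58. Rnaseh2c, a subunit of the nuclease that clears RNA-DNA hybrids, stood at 30.03 ± 2.44 and 35.2 ± 2.31 FPKM. Samhd1, which degrades deoxynucleotides, stood at 45.2 ± 1.62 and 40.7 ± 1.77 FPKM, and Trim56, a ubiquitin ligase, at 17.1 ± 0.70 and 15.3 ± 1.21 FPKM.

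The list of RNA editing and necroptosis partners had 6 tested genes, 1 lower and 2 higher, with a median of 0.01. Adar, the enzyme that edits the cell's own base-paired RNA and so keeps it from MDA5 and PKR, stood at 20.6, 20.6 and 20.9 FPKM in WT and 17.6, 17.1 and 17.8 FPKM in the knockout-labelled libraries. Its log2 difference of -0.23 (SE 0.042) had the smallest p of the 6 lists, with a limma adjusted p of 0.14. Mlkl, the pore-forming protein of necroptosis, stood at 3.13 ± 0.78 and 4.37 ± 0.58 FPKM with overlapping groups. Casp8, at 25.9 ± 0.88 and 26.8 ± 0.58 FPKM, also had overlapping groups.

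Among 19 eIF2 kinases and genes of the integrated stress response 3 were lower and 2 higher, with a median of 0.06. Dnajc3, an inhibitor of PKR and of its relative PERK, stood at 20.5, 21.2 and 21.2 FPKM in WT and 24.1, 23.3 and 23.4 FPKM in the knockout-labelled libraries. Eif2s2, a subunit of eIF2, stood at 13.03 ± 0.88 and 15.1 ± 0.76 FPKM. Eif2ak3, which encodes PERK, stood at 25.9 ± 1.83 and 22.5 ± 1.25 FPKM, and the adaptor Nck1 at 7.95 ± 0.37 and 6.89 ± 0.57 FPKM.

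Of the interferon genes only Ifnb1, Ifna1 and Ifna2 were read, and these were barely present. All WT libraries listed Ifnb1 at 0, and the knockout-labelled ones had 0.0736, 0.0782 and 0.369 FPKM, which is 1, 1 and 5 reads. Ifna1 had 6 reads in knockout-labelled replicate 1 and Ifna2 had 2 in replicate 2, and the other libraries were listed at 0 for both. None of these 3 passed the filter on low values. Irf9 stood at 26.3, 25.4 and 28.8 FPKM in WT and 21.95, 22.5 and 22.9 FPKM in the knockout-labelled libraries. Ifnar2, a chain of the type I interferon receptor, stood at 25.0 ± 0.48 and 29.9 ± 2.09 FPKM. The kinase Tyk2 stood at 15.3 ± 0.97 and 16.5 ± 1.04 FPKM, with overlapping groups.

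**Figure D4:**
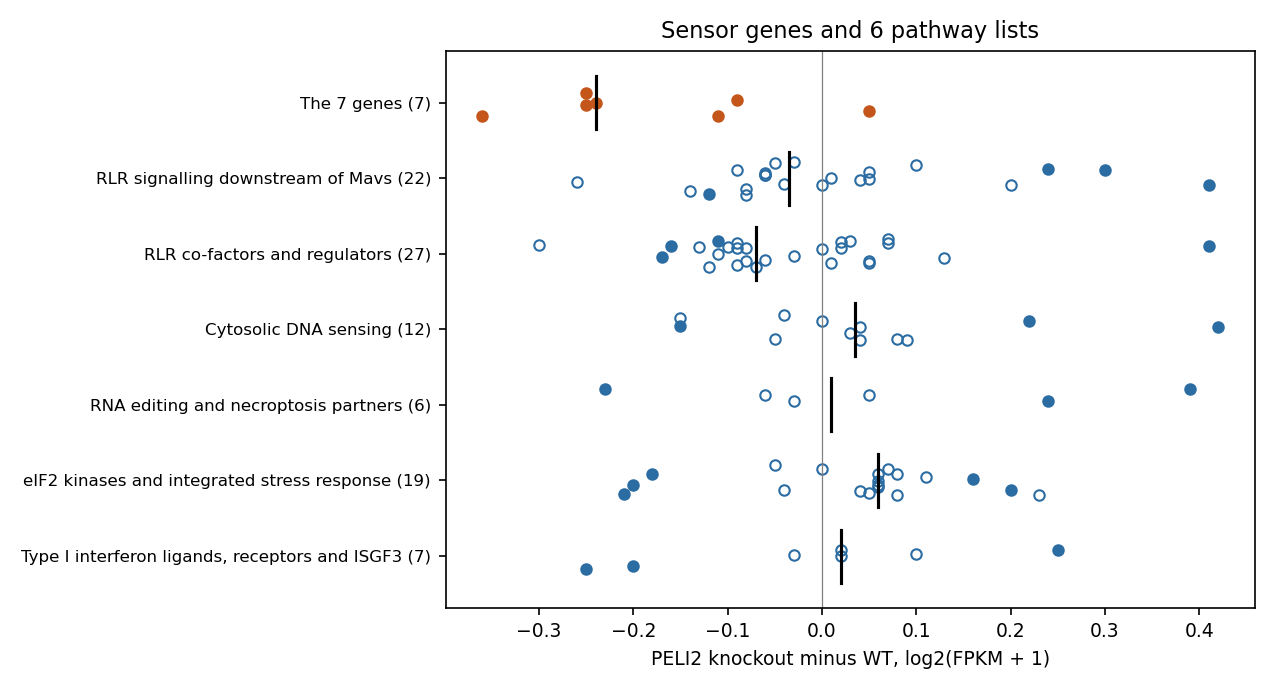
Log2(FPKM + 1) difference, PELI2 knockout minus WT (horizontal axis), of the 7 genes (orange) and of the tested genes of each list (blue, number in brackets; filled points have an unadjusted limma p under 0.05, and the vertical scatter only separates points). Black bars are medians, which lie at -0.24 for the 7 genes and between -0.07 and 0.06 for the lists; the 4 list medians above 0 lie below 0 when libraries were scaled to a common total.

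Markers of other cell types differed with the label. Of the 8 plasmacytoid dendritic cell markers 7 had a higher mean in the knockout-labelled libraries, with a summed level of 881 to 936 FPKM in WT and 917 to 1065 FPKM there. Ly6d, the 1 with a lower mean, was the largest part of that sum, at 472 ± 45.5 and 418 ± 20.2 FPKM. The groups were apart, with the knockout-labelled libraries higher, for Siglech, Bst2, Ccr9, Klk1 and Pacsin1. They overlapped for Ly6d, Tcf4 and Cox6a2. All 8 monocyte and all 8 erythroid markers had a higher mean, at 672 to 942 and 1005 to 1239 FPKM for monocytes and 7808 to 11757 and 11489 to 14504 FPKM for erythroid cells. T and NK cell markers had 7 of 8 higher, at 61 to 77 and 86 to 98 FPKM. Most of that rise lay in Nkg7, at 30.2 ± 5.07 and 45.7 ± 3.47 FPKM, and Cd4, at 20.05 ± 1.67 and 28.03 ± 3.63 FPKM. The groups overlapped for Cd3e, Cd3g, Cd8a, Trac, Klrb1c and Ncr1. None of the listed markers was at 0 in all libraries. In bulk RNA, fewer cells of a type and less RNA per cell cannot be told apart. With the neutrophil marker mean as a covariate the log2 difference of Ddx58 was -0.47 (SE 0.118), that of Dhx58 -0.62 (SE 0.217) and that of Ifih1 -0.52 (SE 0.279). Without the covariate these SEs were 0.049, 0.099 and 0.136, and with it the limma adjusted p was 0.855, 0.855 and 0.866. The neutrophil sums did not overlap between the groups, so this fit cannot separate them well from the label. The part of the other cell types in the differences was not tested.

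**Figure D5:**
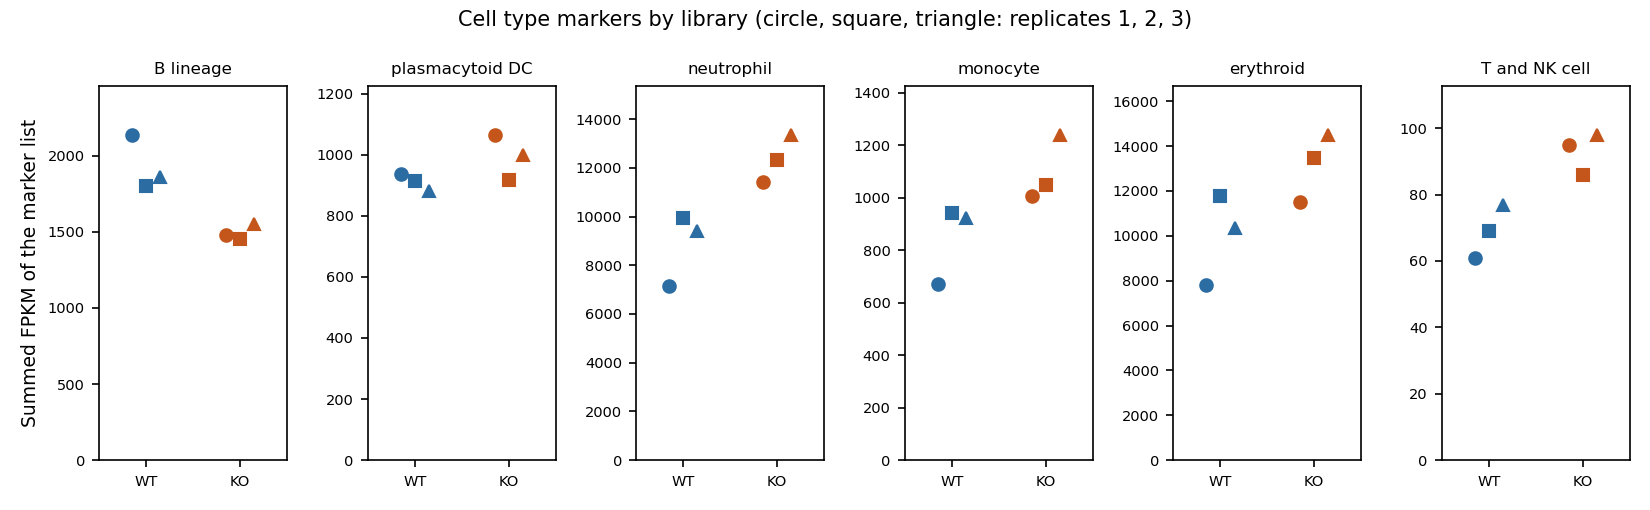
Summed FPKM of 6 marker lists in each library (vertical axes from 0), WT in blue and PELI2 knockout (KO) in orange. B-lineage sums lie between 1799 and 2137 FPKM in WT and between 1455 and 1552 FPKM in the other group. Neutrophil, monocyte and T and NK cell sums are higher in every knockout-labelled library than in any WT library. The T and NK cell difference lies mostly in Nkg7 and Cd4.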

How the data were processed

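Per the labels' protocols, poly(A) RNA of bone marrow B220+ cells was sequenced as single-end reads of 50 bases, and strand use is not stated. RSEM 1.2.12, HISAT2 2.0.4, DESeq2 1.4.5 and Bowtie2 2.2.5, and the build GRCm38.p6, are listed without roles, per the submitters' processing notes. The authors deposited FPKM per gene and library, with no scaling across libraries stated. Library totals were recovered from the low values of genes with 1 annotated transcript, where 99.3% to 99.5% of values under 6 reads were whole within 0.03 reads.

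Genes with FPKM of at least 1 in 3 libraries (12953) were tested on log2(FPKM + 1), which understates changes of low genes, with limma 3.58.1 in R 4.3.3 (lmFit, eBayes with trend, two-sided, Benjamini-Hochberg). The script was tested on simulated data. The members, the 6 pathway lists and the 6 marker lists were chosen with earlier results of these data known. Named are the 7 genes, Peli2, per list up to 4 genes with the smallest p, and the 3 genes nearest in profile to Ddx58, Ifih1 and Dhx58. Ifnb1, Ifna1, Ifna2, Irf7 and the T and NK cell markers were named after their values were seen. A result of 1 list is not reported here. List genes with no row used here were Trex1, Ifna4 and Ifna5. Alternatives were a filter of 5 FPKM or none, pseudocounts of 0.5 and 0.1, quantile, common-total and median-of-ratios scaling, eBayes without trend, library weights, a replicate block, a neutrophil covariate and each library left out.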

Additional observations from a re-analysis of the deposited data

How the results depend on the processing

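Under 17 alternatives Ddx58, Dhx58, Mavs, Trim25, Zbp1 and Eif2ak2 kept a lower mean in each, with Ddx58 between -0.47 and -0.33 (log2), and none of the 7 genes passed the adjusted threshold. Ifih1 kept its direction in 14 of the 16 that tested it and turned with the neutrophil covariate (-0.52) and without WT replicate 1 (-0.066). The median over the 7 genes, -0.24, was -0.44 with the neutrophil covariate and -0.32 after scaling libraries to 1 common total, and ran from -0.29 to -0.16 with a library left out, the last without WT replicate 3. Rescaling moved the median of all genes by -0.071. It also changed the split at an unadjusted p under 0.05 from 1150 lower and 1192 higher to 2331 and 726. That split was 408 and 322 with the neutrophil covariate, and the lower count was 764 without WT replicate 1 and 690 without knockout-labelled replicate 3, so the share of 8.88% set beside the 7 genes moves with these choices. After common-total scaling the list medians were -0.03 for DNA sensing, -0.064 for RNA editing and necroptosis, -0.00927 for eIF2 kinases, -0.057 for interferon ligands and receptors and -0.11 downstream of Mavs (0.03 with the covariate). Without WT replicate 1 the median for DNA sensing was -0.023, and without knockout-labelled replicate 3 it was -0.012. That for interferon ligands and receptors was -0.018 without knockout-labelled replicate 1 and -0.011 without WT replicate 3. The count of 3 genes passing over the whole table was 1 with a filter of 5 FPKM, 6 without trend and 0 with the neutrophil covariate, and ran from 1 (without knockout-labelled replicate 1 or 2) to 13 (without replicate 3 of that group) with a library left out; the cause was not tested. At an unadjusted p, 21 pathway list genes became 2 with the covariate and 13 without WT replicate 1 or knockout-labelled replicate 1. No pathway list gene passed in any alternative. Of 386 values for the 23 named list genes 380 kept direction, which says nothing of size. With the covariate Tbkbp1 (0.00757), Eif2s2 (0.00046), Dhx9 (-0.000202) and Trim56 (-0.000951) kept direction with almost no difference left. Casp8 turned when rescaled (-0.026), and with the covariate Ripk1 (-0.00399), Rnaseh2c (-0.036), Mlkl (-0.32), Eif2ak3 (0.03) and Tyk2 (-0.028) turned. With the replicate block 4 genes passed over the whole table, the median over the 7 genes was -0.24 and no pathway list gene passed. Whether same-numbered libraries share more than a number is not stated in the labels. Their deviations correlated at 0.101, 0.036 and 0.09, and each library correlated best with its own number. Depth limits Ifih1 most, at 208 to 328 reads if all came from its longest transcript.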

Other observations

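The ratio of Ddx58 to Ifih1, chosen after the values were seen, was 6.99, 6.27 and 4.36 in WT replicates 1 to 3 and 4.5, 4.09 and 3.96 in the knockout-labelled libraries. WT replicate 3 lay below knockout-labelled replicate 1, so the groups overlapped. The ratio of Dhx58 to Ifih1, also chosen after the values were seen, was 3.95, 3.68 and 3.16 in WT. In the other group it was 2.99, 2.5 and 2.92, without overlap. Of single tested genes 25.8% were apart in either direction, and the share among ratios was not computed. The ratio of Ddx58 to Dhx58 was 1.77, 1.7 and 1.38 in WT and 1.51, 1.63 and 1.36 in the knockout-labelled libraries, with overlap. Irf7, the interferon-inducible factor downstream of Mavs and likewise picked after its values were seen, stood at 23.2, 27.4 and 34.2 FPKM in WT and 31.4, 30.3 and 35.3 FPKM in the knockout-labelled libraries. As for Ifih1, its WT value was lowest in replicate 1 and highest in replicate 3.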
